A study of Mus musculus with 4 samples.

Results

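A set of 38 interferon-stimulated genes outside the IFIT, OAS, GBP, IRG, IFI200 and Schlafen families were followed through 4 RNA-seq libraries of mouse macrophages. They are 38 of the 52550 gene entries counted, chosen by matching a fixed list of symbols to the Ensembl IDs of the entries, and each of the 38 symbols had its own entry. The members were sorted by role into 8 antiviral effectors, 5 sensors of nucleic acid, 7 genes of the ISG15 system, E3 ligases and TRIM proteins, 3 ADP-ribosyltransferases, 3 nuclear body proteins and 12 other interferon-induced genes.

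The cells were bone marrow-derived macrophages of C57BL/6 mice, 8 to 10 weeks old. The groups were wild type unstimulated, wild type with LPS, miR_7 deficiency unstimulated and miR_7 deficiency with LPS, and each group was 1 library. LPS, the bacterial lipopolysaccharide that activates Toll-like receptor TLR4, was given at 100 ng/mL for 12 h. How the deficiency was made, and how many mice gave each library, is not given in the sources used here, and mature miR-7, which has no poly(A) tail, was not measured. The series text states that counts were used to look for protein-coding genes lowered by this microRNA. Library totals lay between 33937823 and 42074624 counts, with a count in 18156 to 18613 of the entries. Levels are given as CPM, counts per 1e6 of a library total scaled by the trimmed mean of M values (TMM). Macrophage markers summed to 13394 to 22731 CPM. Marker sums of neutrophils, B cells, T cells, NK cells, fibroblasts, erythroid cells and plasmacytoid dendritic cells were between 0 and 11 CPM, and those of conventional dendritic cells between 8.95 and 33.4 CPM.

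Interferon-stimulated genes are the effector arm of the interferon response. LPS activates TLR4, which through the adaptor TRIF leads to secretion of interferon beta; the interferon receptor then activates the complex ISGF3, which holds STAT2 and IRF9. ISGF3 binds the interferon-stimulated response element (ISRE), whose core is a repeat of GAAA, while the gamma-activated site (GAS) serves the response to interferon gamma. The products block virus entry, genome copying, translation and release, sense foreign nucleic acid, or feed back on the pathway itself.

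Promoter sequences are shown first, since the ISRE is the element through which ISGF3 acts on such genes. Promoter windows of RefSeq on GRCm38.p6, from 250 bases before to 50 bases after an annotated start, were found for 29 members. The members with no window in the table were Mx1, Mx2, Usp18, Dhx58, Zbp1, Parp9, Parp14, Rtp4 and Tor3a. The core searched for was GAAA, then any 2 bases, then GAAA, on both strands. It occurred in 14 of the 29 members (48.3%), in 3.99% of 27025 genes with a window and in 4.12% of the 9385 such genes that were also tested below. The GAS core, TTC, then any 3 bases, then GAA, occurred in 4 of the 29 (13.8%) and in 9.55% of all genes. Those 4 were Isg20, Bst2, Ifi35 and Eif2ak2. The windows below are read 5′ to 3′ on the strand of the gene, and the capitals mark ISRE cores.
Isg15, chr4:156200862-156200921, minus strand: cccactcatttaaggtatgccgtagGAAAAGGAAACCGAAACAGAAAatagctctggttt
Bst2, chr8:71537568-71537627, minus strand: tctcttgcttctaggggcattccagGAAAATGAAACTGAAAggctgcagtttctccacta
Trim21, chr7:102565435-102565494, minus strand: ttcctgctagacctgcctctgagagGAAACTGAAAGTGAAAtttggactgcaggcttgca
Calhm6, chr10:34128002-34128061, minus strand: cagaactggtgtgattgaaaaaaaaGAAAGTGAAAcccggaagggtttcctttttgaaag
Rsad2, chr12:26456538-26456597, minus strand: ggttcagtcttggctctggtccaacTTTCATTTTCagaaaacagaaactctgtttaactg
Ddx58, chr4:40239789-40239848, minus strand: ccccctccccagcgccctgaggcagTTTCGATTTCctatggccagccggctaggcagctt
Apol9a, chr15:77411105-77411164, minus strand: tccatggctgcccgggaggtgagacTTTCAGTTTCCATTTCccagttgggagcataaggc
Apol9b, chr15:77729010-77729069, plus strand: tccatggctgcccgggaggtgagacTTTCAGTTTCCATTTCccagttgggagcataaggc
In Isg15, 3 cores overlap in an unbroken row of GAAA repeats, the first starting 78 bases before the start site of the gene. Bst2, Trim21, Apol9a and Apol9b each hold an overlapping pair of cores, and in Bst2 a GAS core overlaps the first of them. In Rsad2, Ddx58, Apol9a and Apol9b the core lies on the opposite strand and is read as TTTC. The windows of Apol9a and Apol9b are identical over 281 of 281 aligned bases. The other members with an ISRE core were Ddx60, Ifih1, Trim30a, Lgals9, Eif2ak2 and Tdrd7. Among members whose window held no such core were Cmpk2, Ifi44, Xaf1 and Trim25. A match describes letters in a window and says nothing about binding.

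**Figure D1:**
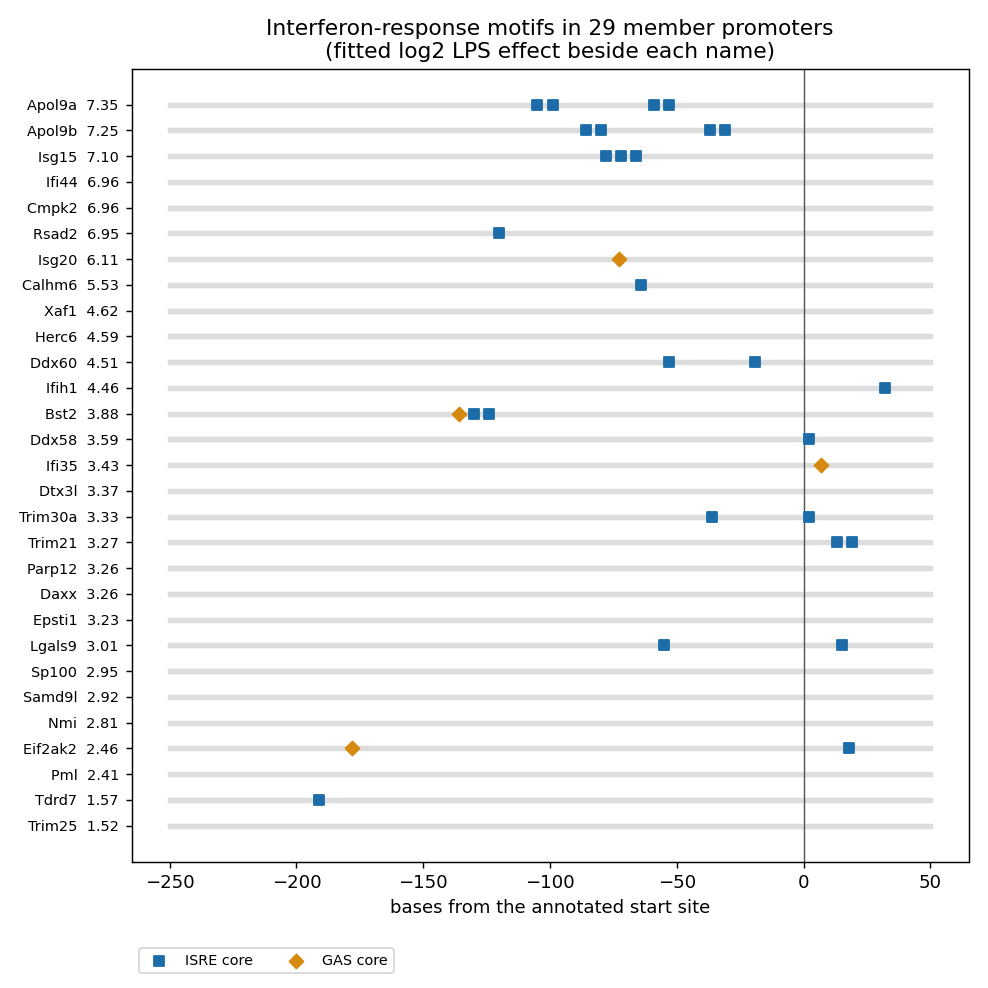
Positions of ISRE cores (blue squares) and GAS cores (orange diamonds) in the promoter windows of 29 members, in bases from the annotated start site (x axis). Members are ordered by the fitted log2 effect of LPS printed beside each name, and 14 of the 29 hold an ISRE core; positions from several start sites of a gene are drawn together.

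With LPS, all 38 members rose. Together they took 0.180% of all counts in the wild-type unstimulated library and 2.35% in the wild-type LPS library, and 0.143% and 2.46% in the deficient libraries. The 6 largest fitted effects were those of Apol9a, Apol9b, Isg15, Cmpk2, Ifi44 and Rsad2, and the 3 smallest those of Trim25, Tdrd7 and Tor3a. In bulk RNA, a change in the number of responding cells and a change in RNA per cell cannot be told apart. The test was an additive model of genotype and LPS over the 4 libraries (edgeR quasi-likelihood, adjusted p under 0.05 by Benjamini-Hochberg over 12730 tested genes), so the LPS pairs of the 2 genotypes serve as the only repeat. Of the 38 members, 38 rose and 0 fell, beside 18.0% of all tested genes that rose and 16.3% that fell. The members' median fitted log2 effect was 3.73, with a range of 1.52 to 7.35 and adjusted p between 0.000173 and 0.00842, while the median of all tested genes was -0.04. A filter of 1 CPM of the unscaled total in at least 2 libraries preceded the test. In 35 members every library reached it, Apol9b and Calhm6 reached it in 3 libraries, and Apol9a passed through its LPS libraries alone. The call of Apol9a is therefore counted among the 38 but is no support for a rise.

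**Figure D2:**
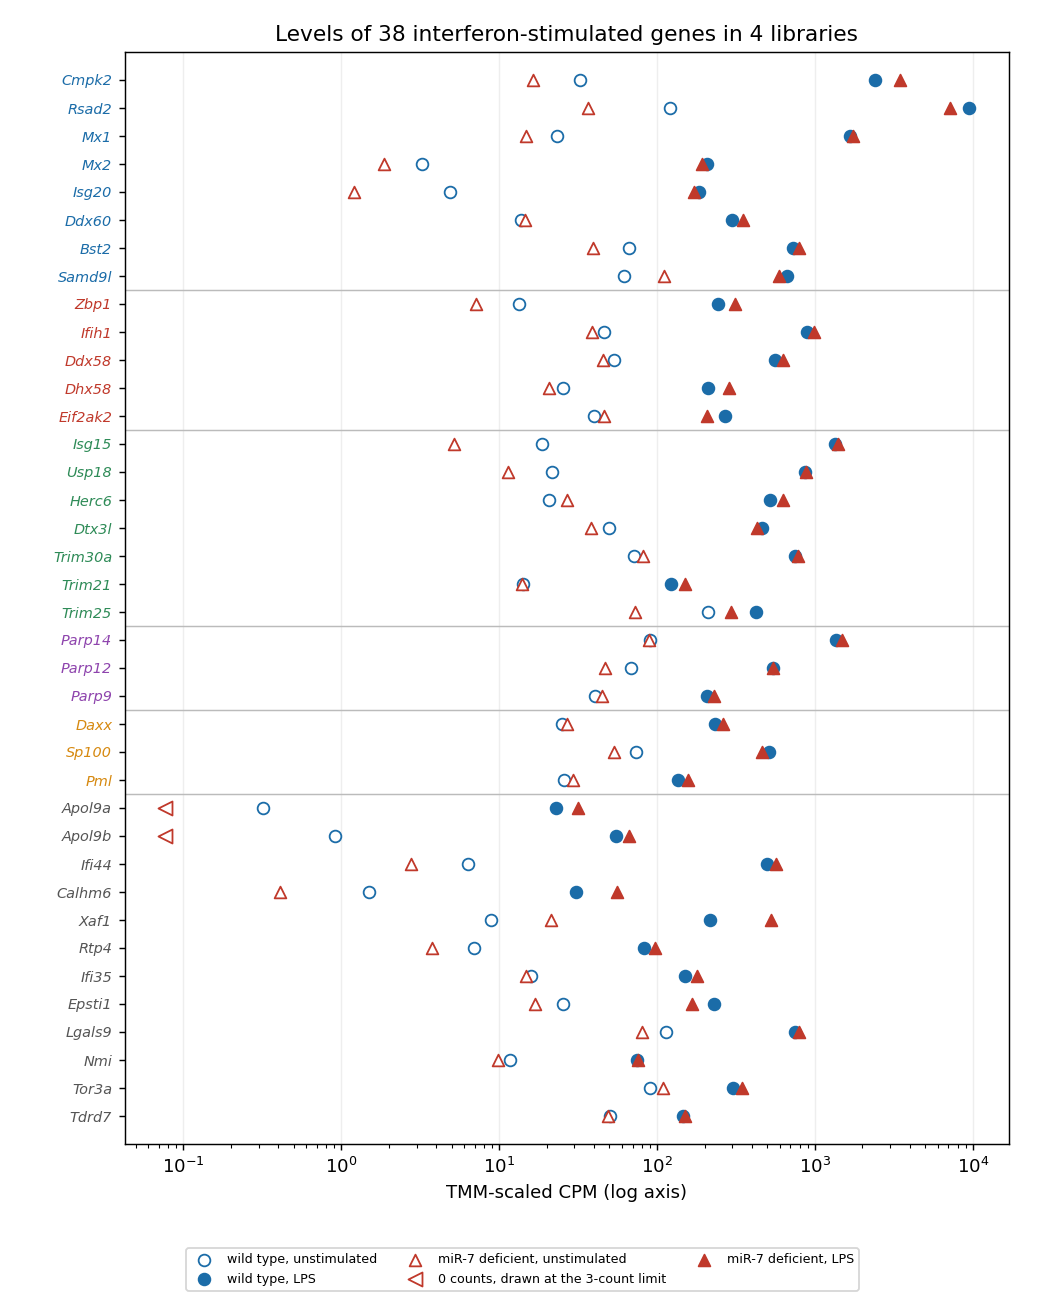
Level of each member in each of the 4 libraries, as CPM scaled by the trimmed mean of M values (TMM), on a log axis; open symbols are unstimulated and filled symbols LPS libraries, circles wild type and triangles miR-7 deficient. Names are coloured by role and lines part the role groups; in every member both filled symbols lie right of both open ones, and the 2 counts of 0 (Apol9a and Apol9b) are drawn at the limit of 3 counts.

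Levels below are TMM-scaled CPM, given in the order wild type unstimulated, wild type LPS, deficient unstimulated, deficient LPS. Ratios between a pair of libraries have no replicate, and their 95% intervals reflect the number of counts alone. A ratio counts as beyond 2-fold when its whole interval is. By that rule 37 members were higher with LPS in the wild-type pair (background 14.8% of tested genes higher, 13.3% lower) and 38 in the deficient pair (12.5% higher, 11.8% lower). None was lower in either pair. The exception was Trim25 in wild type, with an interval for its log2 ratio of 0.99 to 1.06.

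The antiviral effectors had the highest group median, a fitted log2 effect of 6.22. Cmpk2, a mitochondrial nucleotide kinase, led them with 32.7, 2392, 16.3 and 3445 CPM (log2 6.96 ± 0.48, SE; adjusted p 0.000285). Rsad2, which encodes viperin and makes a chain-terminating nucleotide from CTP, had 120, 9408, 36.4 and 7165 CPM. It took more counts with LPS than any other member in both genotypes. Rsad2 and Cmpk2 are neighbours on mouse chromosome 12, on opposite strands and 12751 bases apart. The dynamin-like GTPase gene Mx1 had 23.3, 1669, 14.9 and 1750 CPM, and its neighbour Mx2 had 3.25, 208, 1.86 and 192 CPM. Both rose by more than 100-fold in the deficient pair (117-fold and 103-fold) and by 71.8-fold and 64.1-fold in wild type. The wild-type ratios move when 1.3% of the wild-type LPS count is taken from the unstimulated count, as described below. On the log2 scale Mx1 then went from 6.17 to 7.72 and Mx2 from 6.00 to 7.28. GENCODE M21 annotates Mx2 as a polymorphic pseudogene, so its RNA is no measure of a working protein. Protein of Mx1 was not measured either, and its RNA does not show that a working one was made. Isg20, an exonuclease that degrades viral RNA, had 4.89, 185, 1.20 and 171 CPM.

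Ddx60, a helicase-family gene linked to RNA sensing, had 13.7, 298, 14.6 and 351 CPM, nearly the same ratio in both pairs (21.6-fold and 24.0-fold). Bst2 encodes tetherin, which holds budding virions at the cell surface, and had 66.3, 722, 39.4 and 788 CPM. Samd9l, a gene whose human product arrests translation, showed the lowest fitted effect of the group with 62.0, 661, 110 and 591 CPM (log2 2.92 ± 0.29, adjusted p 0.000945). Its deficient library without LPS was the highest of the unstimulated pair, and its LPS ratio was 10.6-fold in wild type and 5.38-fold in deficient cells.

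The 5 sensors of nucleic acid rose with a median log2 of 3.59. Zbp1, the sensor of left-handed nucleic acid that can start necroptosis, had 13.3, 244, 7.11 and 312 CPM (log2 4.82 ± 0.36, adjusted p 0.00037). Ifih1, which encodes MDA5 and detects long duplex RNA, had 46.3, 887, 39.0 and 986 CPM. Ddx58 encodes RIG-I, the sensor of RNA ends with a triphosphate, and had 53.4, 556, 45.2 and 626 CPM. Dhx58, the third member of that receptor family, which lacks the signalling domains, had 25.5, 210, 20.8 and 286 CPM. For each of these 4, the deficient cells had the lower level of the pair without LPS and the higher with it. Eif2ak2, the kinase PKR that stops translation when it binds duplex RNA, went the other way round with 39.7, 269, 46.3 and 208 CPM (log2 2.46 ± 0.23, adjusted p 0.000683).

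The ISG15 system attaches a ubiquitin-like protein to others. Isg15, the modifier itself, had 18.8, 1344, 5.15 and 1393 CPM, a ratio of 71.5-fold in wild type and 271-fold in deficient cells (log2 7.10 ± 0.56, adjusted p 0.000434). Its LPS levels were nearly equal, so the larger ratio goes with the lower start. Usp18, which removes ISG15 and also blocks the interferon receptor, had 21.5, 865, 11.3 and 877 CPM. Herc6, the ligase that attaches ISG15 in mice, had 20.6, 516, 26.9 and 624 CPM. Herc6 shares 13.7% of its exonic bases with an overlapping entry, so the assignment of its reads is uncertain.

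Dtx3l, a ubiquitin ligase that works as a pair with Parp9, had 49.6, 465, 38.1 and 431 CPM. Trim21, a cytosolic antibody receptor, had 14.1, 122, 13.9 and 150 CPM, and Trim30a, which in mice restrains signalling by Toll-like receptors, had 71.3, 746, 81.6 and 785 CPM. Trim25, the ligase that in human cells ubiquitinates RIG-I, had 209, 424, 72.8 and 295 CPM, the lowest fitted effect of all members (log2 1.52 ± 0.28, adjusted p 0.00842). It was lower in deficient cells in both conditions, and its wild-type pair differed least of all members. The call for Trim25 ended in a model of LPS without genotype (adjusted p 0.126). In that model it was also lost without the wild-type LPS, the deficient unstimulated or the deficient LPS library (adjusted p 0.308, 0.189 and 0.148).

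The 3 ADP-ribosyltransferases had a median of log2 3.26. Parp14, which adds single ADP-ribose units to proteins, had 90.9, 1365, 89.3 and 1474 CPM (log2 3.98 ± 0.22, adjusted p 0.000175), and the genotypes differed little in either condition. Parp12, a zinc-finger member that binds RNA, had 68.8, 543, 46.6 and 543 CPM. Parp9, the partner of Dtx3l, had 40.7, 206, 44.7 and 229 CPM (log2 2.35 ± 0.19, adjusted p 0.000437). Parp9 and Dtx3l start head to head on chromosome 16 and overlap by 682 bases. Reads in the shared exons (9.4% of Parp9 and 8.0% of Dtx3l) could not be assigned without strand, and no strand setting is given in the sources used here.

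The 3 nuclear body proteins had a median of log2 2.95. Daxx, a histone chaperone, had 24.9, 233, 26.9 and 263 CPM (log2 3.26 ± 0.19, adjusted p 0.000201). Sp100, of whose 50-base windows 10.6% occur in other genes, had 73.8, 512, 53.6 and 461 CPM. Pml, the scaffold of the bodies that carry its name, had 25.6, 136, 29.3 and 157 CPM (log2 2.41 ± 0.19, adjusted p 0.00041). The LPS ratios of Pml were nearly equal in the pairs, 5.31-fold and 5.35-fold.

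Of the 12 other genes, the apolipoprotein L genes Apol9a and Apol9b responded most by fold. Apol9a had 15, 755, 0 and 1187 counts (0.321, 22.8, 0 and 31.7 CPM) and Apol9b had 43, 1821, 0 and 2483 counts (0.919, 54.9, 0 and 66.3 CPM). Against a limit of 3 counts in the deficient unstimulated library, they were at least 414-fold and at least 867-fold higher with LPS, and in wild type 71.0-fold and 59.8-fold. The pair is nearly identical in sequence. Of windows of 50 bases, 57.5% of those in Apol9a occur in Apol9b and 51.4% of those in Apol9b in Apol9a, so how reads were split between them is uncertain. The fitted log2 of Apol9a was 7.35 ± 0.84, and it depends on the prior count. Apol9a entered the test through its LPS libraries alone, so its call is no separate support for a rise.

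Ifi44, an interferon-induced gene of the GTPase-like kind, had 6.37, 497, 2.78 and 571 CPM, and Calhm6, a channel subunit of activated macrophages, had 1.5, 30.5, 0.408 and 56.0 CPM. Xaf1, which encodes a partner of the apoptosis inhibitor XIAP, had 8.85, 217, 21.2 and 524 CPM. The LPS ratio of Xaf1 was 24.5-fold in wild type and 24.7-fold in deficient cells, with the deficient library the higher in each condition. Rtp4, a receptor transporter protein, had 6.93, 82.4, 3.77 and 96.5 CPM. The binding partners Ifi35 and Nmi had 15.9, 151, 14.8 and 180 CPM and 11.7, 74.6, 9.86 and 76.1 CPM. Rtp4 and Ifi35 share 13.9% and 16.8% of their exonic bases with other entries.

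Epsti1, induced by interferon in macrophages, had 25.2, 228, 16.9 and 166 CPM. Lgals9, which encodes the sugar-binding galectin-9, had 114, 747, 79.9 and 790 CPM. The torsin ATPase gene Tor3a had 90.8, 305, 109 and 345 CPM, and Tdrd7, a Tudor-domain gene, had 50.7, 145, 48.8 and 150 CPM (log2 1.57 ± 0.18, adjusted p 0.00154). Tor3a and Tdrd7 were counted well without LPS, and their log2 LPS ratios in the pairs lay between 1.52 and 1.75.

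Levels of different genes can be compared only per length. In CPM per kilobase of exon, the order with LPS in wild type was Rsad2 (2170), Isg15 (1777), Bst2 (799), Cmpk2 (574) and Mx1 (441). In deficient cells with LPS it was Isg15 (1843), Rsad2 (1653), Bst2 (873), Cmpk2 (828) and Mx1 (462), the same 5 genes with the first pair exchanged. Without LPS, Bst2 (73.4) and Lgals9 (53.3) led in wild type.

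**Figure D3:**
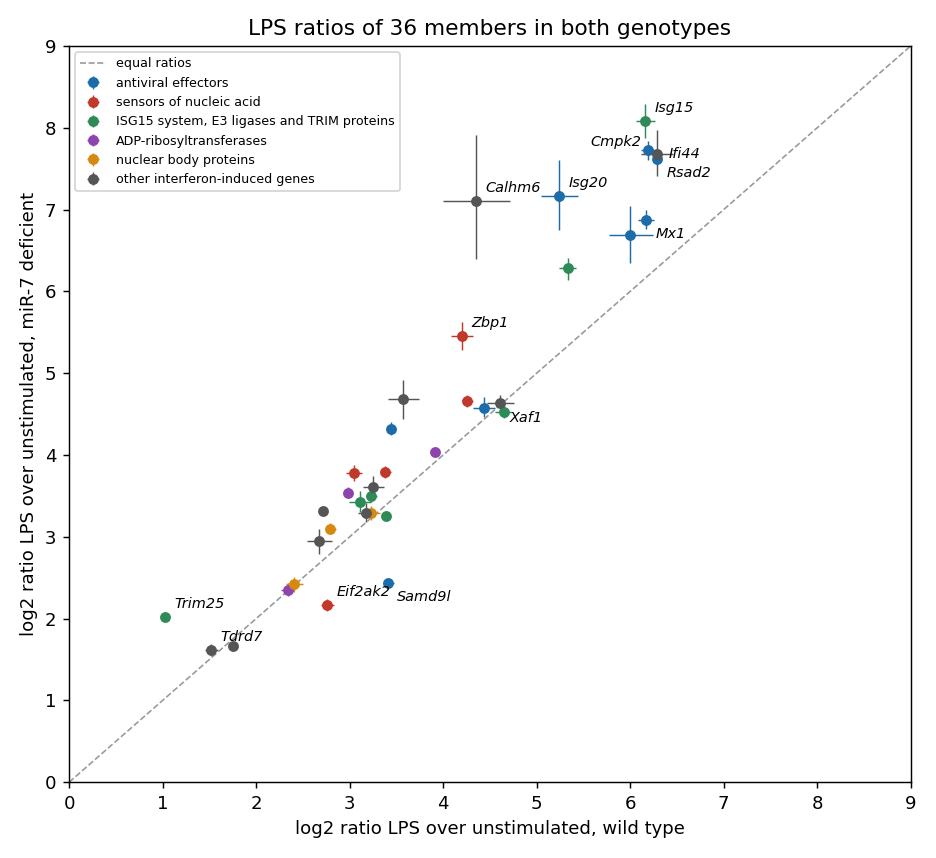
Log2 ratio of LPS over unstimulated in the wild-type pair (x axis) against that in the miR-7 deficient pair (y axis) for 36 members, without Apol9a and Apol9b, which had 0 counts in the deficient unstimulated library. Points are coloured by role, bars are 95% intervals for counting error, and the dashed line marks equal ratios; Isg15 lies at 6.16 and 8.08, and Samd9l and Eif2ak2 lie farthest below the line.

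The next question was whether the members differed between genotypes. In the additive model 0 members were higher and 0 lower in deficient cells, beside 0.385% of tested genes higher and 0.165% lower. At an unadjusted p under 0.05 there were 4 members (10.5%, background 7.6%). Xaf1 came nearest (log2 1.27 ± 0.18, adjusted p 0.0667), and it was higher in deficient cells in both conditions. Its adjusted p was 0.0251 with a filter of 10 CPM and 2.54e-06 in the Wald test of DESeq2, each of which called 1 member, Xaf1. No background over all tested genes is given for either setting, and both use the same 4 libraries. The median fitted genotype effect was log2 -0.18 over the members and 0.02 over all tested genes. This model treats any genotype effect seen in 1 condition alone as spread, so each condition was also compared by itself.

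Without LPS, most members were lower in the deficient library as counted. With the smallest share taken from the wild-type counts, as described below, members lower in the deficient library were no longer the majority. The median log2 ratio of deficient over wild type was -0.42 (0.00 over all tested genes). Intervals lay wholly below 0 in 24 members (63.2%, background 30.7%) and wholly above in 8 (21.1%, background 31.9%). Beyond 2-fold, 7 members were lower (18.4%, background 1.41%) and 1 was higher (2.63%, background 2.82%). The lower members were Isg15, Isg20, Rsad2, Apol9a, Apol9b, Trim25 and Calhm6, and the higher one was Xaf1. Isg15 had a log2 ratio of -1.87 (-2.10 to -1.65), and Rsad2 of -1.72 (-1.81 to -1.64). Apol9b, with 43 counts against 0, was at least 12.0-fold lower, and Apol9a, with 15 against 0, at least 4.19-fold. Isg20 was at -2.03 (-2.52 to -1.57), Calhm6 at -1.88 (-2.76 to -1.08) and Trim25 at -1.52 (-1.58 to -1.46). On the other side, Xaf1 was at 1.26 (1.09 to 1.43), Samd9l at 0.82 (0.75 to 0.89), Herc6 at 0.39 (0.26 to 0.51) and Tor3a at 0.27 (0.21 to 0.33).

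These resting ratios move with a feature of the wild-type unstimulated library. Its counts of LPS-induced genes did not go below a small share of the counts in the wild-type LPS library. Over 18 LPS-induced genes outside the members, cytokines and chemokines among them, the unstimulated count was 1.3% to 5.37% of the LPS count in wild type, with a median of 1.97%. The same genes in the deficient pair spanned 0.0428% to 6.72%, with a median of 0.578%. Il6 had 162 against 12219 counts in wild type (1.33%) and 6 against 14008 in the deficient pair (0.0428%). Among tested genes with at least 5000 counts with LPS, 1 of 1293 was below 1% in the wild-type pair and 40 of 1457 in the deficient pair. For the members, the lowest wild-type share was 1.8% (Rsad2), with Ifi44 at 1.81%, Cmpk2 at 1.93%, and Isg15 and Mx1 at 1.97%. In the deficient pair 9 members were below 1%, with no minimum set on their counts. Among these, Apol9a, Apol9b and Calhm6 had 1187, 2483 and 2099 deficient LPS counts, under the 5000 asked of the tested genes. These shares are of counts not scaled for library size, and their median over the tested genes with at least 5000 counts with LPS was 80.8% in wild type and 67.1% in the deficient pair. After scaling, the LPS ratio was the larger in deficient cells for 33 of the 38 members (86.8%, background 49.8%).

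**Figure D4:**
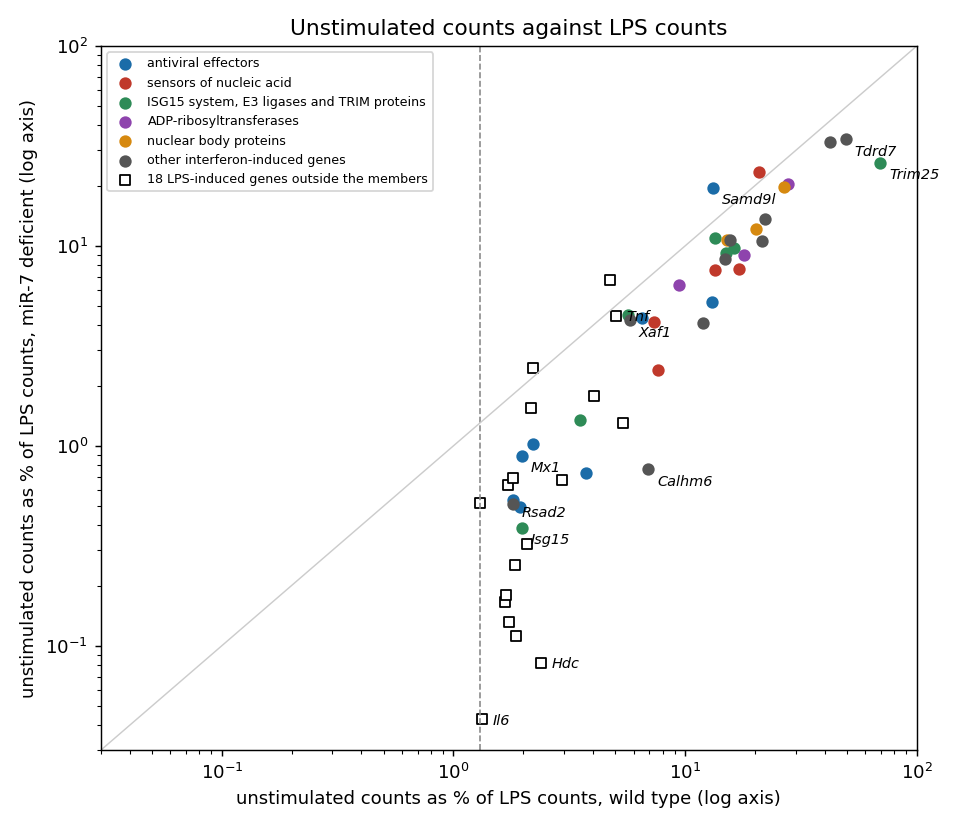
Unstimulated count as a percent of the LPS count in the wild-type pair (x axis) and in the miR-7 deficient pair (y axis), both log axes, for 36 members (filled, by role) and 18 LPS-induced genes outside them (open squares). The dashed line is the smallest wild-type value of the outside genes, 1.3%, and the grey line marks equal percents; members and outside genes go below 1% only along the y axis, and Apol9a and Apol9b, at 0 in the deficient pair, are not drawn.

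When the smallest of those shares, 1.3% of the wild-type LPS count, was taken from each wild-type unstimulated count, 2 members were still lower beyond 2-fold, Apol9b and Trim25, and 1 was higher, Xaf1. The ratio of Isg15 became -0.33 (-0.60 to -0.07) and that of Rsad2 0.11 (0.00 to 0.21). Isg20, at -1.43 (-1.94 to -0.95), and Calhm6, at -1.60 (-2.50 to -0.78), were no longer wholly beyond 2-fold. With the median share, 1.97%, Trim25 was the 1 member lower and 7 were higher. No background over all tested genes was computed for these counts after subtraction. At the median share Mx1, Rsad2, Cmpk2, Ifi44 and Apol9a had 0 wild-type counts left and Isg15 had 2. Rsad2 (1.8%), Ifi44 (1.81%) and Cmpk2 (1.93%) lay below that share in wild type, so it exceeded their whole unstimulated counts. The ratio of Trim25 was -1.51 at both shares, since its unstimulated count was 69.3% of its LPS count. All 38 members were still called higher with LPS at either share. The subtraction lowers wild-type unstimulated counts alone, so it could not turn a rise into a fall. The members whose whole interval went from below 0 to above it were Mx1 (0.91), Cmpk2 (0.59) and Ifi44 (0.61) at the smallest share, and Rsad2 went from below 0 to a lower bound that rounds to 0. Why the wild-type counts end where they do, and what part this has in the resting ratios, was not tested.

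**Figure D5:**
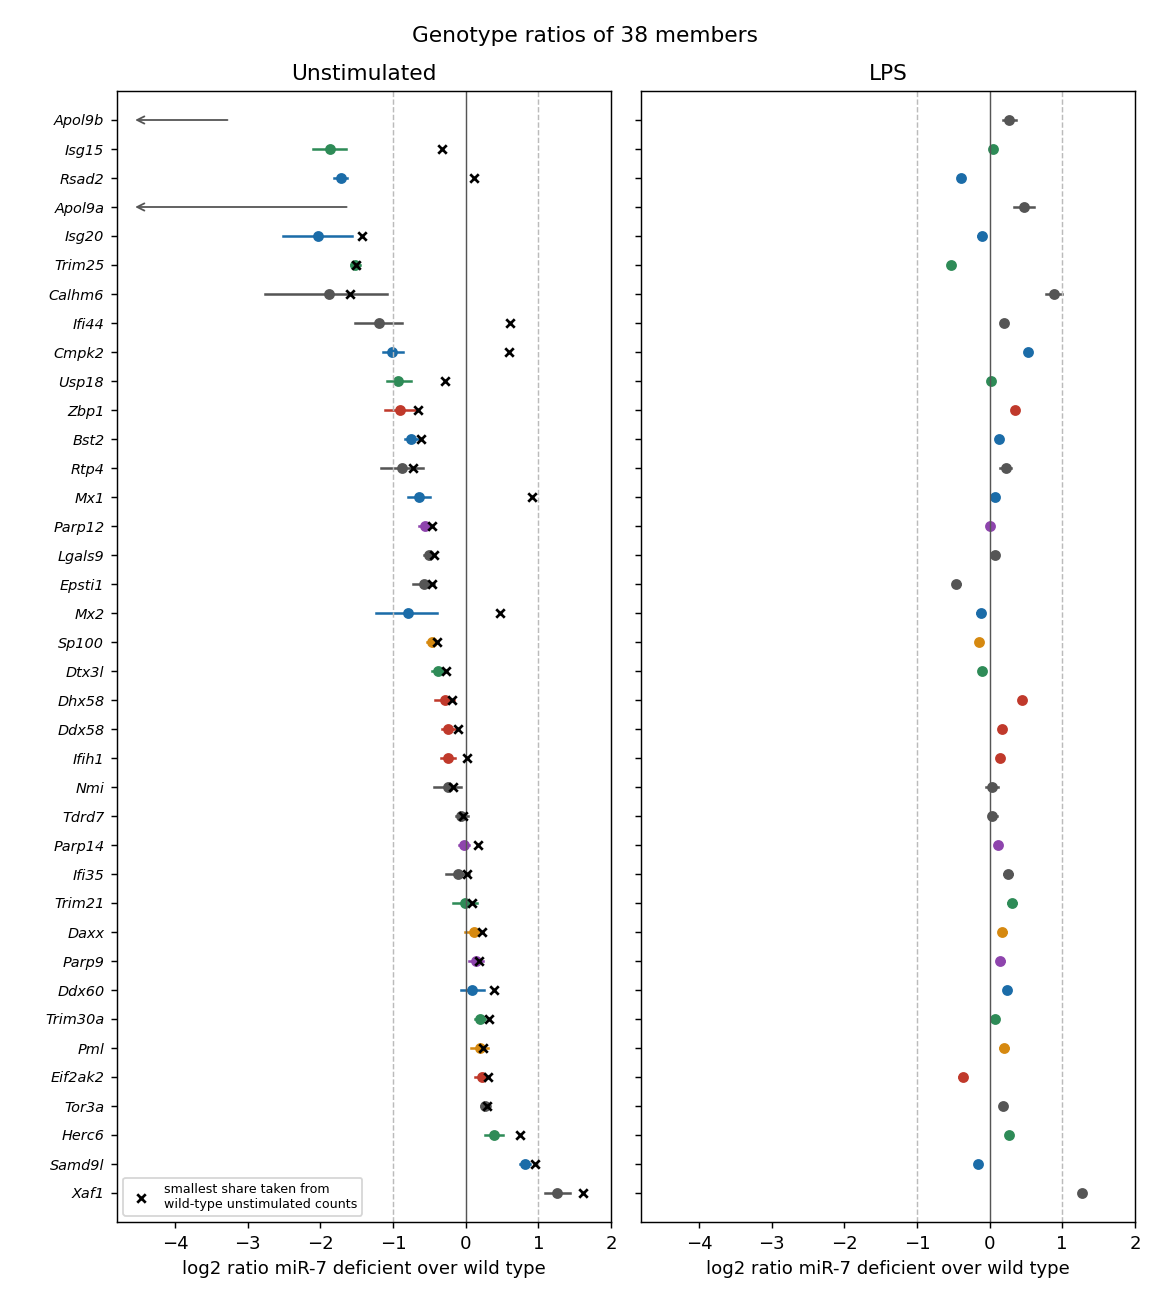
Log2 ratio of miR-7 deficient over wild type (x axis) without LPS (left) and with LPS (right) for the 38 members. Members are ordered by the upper interval bound without LPS. Bars are 95% intervals for counting error, arrows mark the 2 members with 0 deficient counts and dashed lines mark 2-fold. Crosses show the ratio once 1.3% of each wild-type LPS count is subtracted from its unstimulated partner: Isg15 moves from -1.87 to -0.33 and Trim25 hardly moves.

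With LPS, the genotypes were close. The median log2 ratio was 0.14 (0.02 over all tested genes). Intervals lay wholly above 0 in 25 members (65.8%, background 34.8%) and wholly below in 9 (23.7%, background 31.6%). Beyond 2-fold, 1 member was higher (2.63%, background 2.58%) and 0 were lower (background 3.04%). That member was Xaf1, at 1.27 (1.23 to 1.31). Calhm6 followed at 0.88 (0.77 to 0.99), Cmpk2 at 0.53 (0.51 to 0.54) and Dhx58 at 0.45 (0.40 to 0.49). At the lower end were Trim25 at -0.53 (-0.56 to -0.49), Epsti1 at -0.46 (-0.51 to -0.41), Rsad2 at -0.39 (-0.40 to -0.39) and Eif2ak2 at -0.37 (-0.42 to -0.33). Cmpk2 and its neighbour Rsad2 thus lay on opposite sides of 0.

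Taking both conditions, 14 members had the interval below 0 without LPS and above 0 with it (36.8%, background 9.91%), among them Isg15, Mx1, Cmpk2, Ifih1, Ddx58, Dhx58 and Zbp1. With the smallest share taken these were 9, and Mx1, Cmpk2, Ifi44, Ifih1 and Apol9a were no longer among them. Here and below, no background was computed for counts of members with a share taken. Both intervals were below 0 in 7 members (18.4%, background 11.5%): Isg20, Mx2, Rsad2, Dtx3l, Epsti1, Trim25 and Sp100. At the smallest share these were 5, without Mx2 and Rsad2. Both intervals were above 0 in 6 members (15.8%, background 13.2%): Xaf1, Parp9, Tor3a, Herc6, Trim30a and Pml. With the smallest share taken these were 12, now with Mx1, Cmpk2 and Ifi44. Eif2ak2 and Samd9l were the 2 members above 0 without LPS and below 0 with it (5.26%, background 9.49%). At the smallest share these were 3, now with Rsad2.

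The LPS ratio was therefore also compared between the pairs, as a ratio of ratios after adding 0.5 counts. Beyond 2-fold, 9 members had the larger ratio in deficient cells (23.7%, background 2.26%) and 0 the smaller (background 3.82%). On the log2 scale the difference was 1.92 for Isg15 (1.70 to 2.14), 1.91 for Isg20 (1.45 to 2.36) and 2.72 for Calhm6 (1.94 to 3.50). Apol9b, at 6.46 (2.44 to 10.48), rests on a count of 0. The lowest differences were those of Samd9l, -0.98 (-1.06 to -0.91), Eif2ak2, -0.60 (-0.70 to -0.49), Trim30a, -0.12 (-0.20 to -0.05), and Tor3a, -0.09 (-0.16 to -0.02). The difference shares the wild-type unstimulated library with the resting ratios, and with the smallest share taken 2 members were higher and 1 lower, with the median share 1 and 7. These counts have no background, and the median share left some members with 0 wild-type unstimulated counts.

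Genes upstream of the members moved as follows in the additive model. Of 25 listed genes of interferon signalling, 24 were tested; 16 of them rose, only Ifngr1 fell, and 7 missed the threshold. Stat2, a part of ISGF3, had 32.8, 421, 24.9 and 441 CPM (log2 3.91 ± 0.23, adjusted p 0.000198). Irf7, the factor that amplifies interferon production, had 28.0, 1080, 9.46 and 1164 CPM. Its unstimulated count was 3.66% of the LPS count in wild type and 0.851% in deficient cells. Irf9, the DNA-binding part of ISGF3, rose less, with 34.8, 98.0, 29.8 and 92.5 CPM (log2 1.56 ± 0.19, adjusted p 0.00187). Ifngr1, a chain of the interferon gamma receptor, fell with 139, 30.3, 146 and 33.1 CPM. Ifnb1, interferon beta itself, had 0, 11, 0 and 23 counts, too few to be tested. Of the 3 counted partners of ISG15, 3 rose, among them its activating enzyme Uba7 (41.5, 347, 28.8 and 424 CPM) and conjugating enzyme Ube2l6 (13.3, 134, 17.7 and 163 CPM). None of these genes passed the test for genotype.

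Because the deficient libraries are labelled as deficient in miR-7, the members were searched for its seed match. Both mature forms of RefSeq (GRCm38.p6) share the seed, bases 2 to 8, shown in capitals.
mmu-miR-7a-5p: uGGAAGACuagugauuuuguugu
mmu-miR-7b-5p: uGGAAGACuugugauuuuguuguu
The match to this seed was found in the longest annotated 3′ UTR (GENCODE M21) of 4 of the 38 members (10.5%), Mx1, Parp14, Ddx60 and Bst2, against 15.4% of the 11309 tested genes with such a UTR. The median UTR length was 864 bases in the members and 1368 in the tested genes, so the shares are not matched for length. The sites of Mx1 and Parp14 are shown with the match in capitals.
Mx1: tttgggggcaagctcaGTCTTCCttggc
Parp14: agccaatggggctgctGTCTTCCttgct
Their ratios of deficient over wild type were -0.64 (-0.79 to -0.49) for Mx1 and -0.03 (-0.09 to 0.04) for Parp14 without LPS, and 0.07 (0.05 to 0.08) and 0.11 (0.09 to 0.13) with it. Bst2 was at -0.75 without and 0.13 with LPS, and Ddx60 at 0.09 and 0.24. None of the 4 was beyond 2-fold in either condition. Xaf1, the member highest in deficient cells, had no such match in its UTR.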

How the data were processed

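Poly(A) RNA of TRIzol extracts was read on a HiSeq 2000, per the labels' protocols and the series design text. That text names Bowtie2, TopHat v2.0.13, Cutadapt and Casava v1.8.2, and the submitters' processing notes name HTSeq and the build mm8. For each library the authors deposited a file of raw gene counts, without normalization. Annotation release, strand setting and treatment of reads with several positions are not stated there. Of 52550 IDs, 52403 (99.7%) matched GENCODE M21 (GRCm38) without version; coordinates and lengths are those of M21, whatever build was aligned to.

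TMM factors (1.15, 0.846, 1.16, 0.89) were computed on genes with 1 CPM in at least 2 libraries. The additive model was fitted with edgeR 4.0.16 (R 4.3.3); 1 residual degree of freedom remains, and the biological coefficient of variation was 0.247. A standard error (SE) is the fitted log2 change over the square root of F. Nothing states that libraries came from separate cultures, and p-values measure spread between these libraries. Pair ratios have exact Clopper-Pearson 95% intervals, and differences between LPS ratios normal ones; where a gene had 0 counts, the upper limit was set at 3 counts (0.0641 to 0.0905 scaled CPM). Intervals and limits cover counting error only. The fit was tested on simulated counts.

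Members, role groups, lists and tests were chosen with earlier results of these data known. Named in full are the extremes of each role group by LPS effect and the 4 highest and 4 lowest of each genotype ratio and of the difference by the bound nearest 0. From other lists, the 2 most abundant called genes in each direction and Ifnb1, Stat2, Irf7 and Irf9 are named, apart from 1 gene that is not reported here; Il6 was chosen after its values were seen. Alternatives were DESeq2 1.42.0 (size factors, Wald test), total counts, other filters, fold limits and pseudocount, thinned counts, left-out libraries and the shares taken from wild-type unstimulated counts.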

Additional observations from a re-analysis of the deposited data

Results flagged for a closer look

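In 9 members (23.7%, background 2.26%) the LPS ratio differed between the deficient and the wild-type pair by an interval wholly beyond 2-fold. As counted, it was always larger in the deficient pair (0 smaller, background 3.82%). With 1 library per group this compares libraries, and the intervals cover counting error only. On the log2 scale the differences were 1.92 for Isg15, 1.91 for Isg20, 1.33 for Rsad2, 1.53 for Cmpk2, 1.39 for Ifi44, 1.25 for Zbp1, 2.72 for Calhm6, 5.18 for Apol9a and 6.46 for Apol9b. The last pair had 0 counts in the deficient unstimulated library and rests on the added 0.5 counts. Their unstimulated counts in wild type were 1.8% (Rsad2) to 7.67% (Zbp1) of their LPS counts. With the smallest share taken from wild-type unstimulated counts, 2 members were higher beyond 2-fold and 1 lower, with no background computed. The differences of Rsad2 (-0.50), Cmpk2 (-0.07) and Ifi44 (-0.41) then lay below 0. The part of that share in the differences was not tested.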

How the results depend on the processing

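The LPS calls were stable in number: of 13 alternatives, 7 gave 38 members higher, the model of LPS alone 37, the 4 that left out 1 library from that model 36 to 38, and dropping members that share exonic bases 27 of 27. None gave a member lower, and Apol9a was not tested where an LPS library was left out. Taking a share lowers unstimulated counts alone, and dropping members leaves the calls of the others as they were. These settings therefore could not turn a rise into a fall. Total counts in place of TMM shifted the median of all genes by -0.44 (wild type) and -0.38 (deficient) on the log2 scale. For genotype, DESeq2's Wald test and the 10 CPM filter each called 1 member higher in place of 0, with no background given for either. A limit of 1.5-fold gave 2 higher and 13 lower without LPS and 2 higher with LPS. It gave 14 higher and 1 lower for the difference between LPS ratios. A limit of 4-fold gave 0 higher and 1 lower without LPS, 0 higher with LPS and 1 higher for the difference. No background over all tested genes is given at either limit, so these counts are not read as results about the members. With the smallest share taken, 2 members were lower without LPS, and the difference was called higher in 2 and lower in 1. With the median share these were 7 higher and 1 lower without LPS, and 1 higher and 7 lower for the difference. No background was computed for counts with a share taken. Among values beyond 2-fold, those that changed sign at the smallest share were the ratio of Rsad2 without LPS (0.11) and the differences of Rsad2 (-0.50), Cmpk2 (-0.07) and Ifi44 (-0.41). At the median share they were the ratio of Isg15 without LPS (6.88) and the differences of Isg15 (-6.52), Rsad2 (-12.10), Cmpk2 (-10.02) and Ifi44 (-7.80). That share exceeded the wild-type unstimulated counts of Rsad2, Cmpk2 and Ifi44, so their differences rest on the added 0.5 counts. The values of Isg15 rest on 2 counts. Ratios without LPS that were not beyond 2-fold also changed sign: at the smallest share those of Mx1 (0.91), Mx2 (0.47), Cmpk2 (0.59), Ifi44 (0.61), Ifih1 (0.01), Parp14 (0.17), Ifi35 (0.01) and Trim21 (0.09), and at the median share, among others, those of Mx2 (2.42), Usp18 (0.23) and Ifih1 (0.17). At the median share Mx1, Rsad2, Cmpk2 and Ifi44 had 0 wild-type counts left, and the lower bounds of their ratios were 7.53, 8.82, 7.66 and 5.09. The cause was not tested. The additive model takes genotype as the block for LPS, and the model of LPS alone has no such block. A further pairing by replicate was not made, since each group holds 1 library.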
